A study of Homo sapiens with 4 samples.

Results

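The 10 genes described here belong to the Notch pathway: the ligands JAG1, JAG2 and DLL1, the receptors NOTCH1, NOTCH2 and NOTCH3, the DNA-binding protein RBPJ, which the array calls RBPSUH, the inhibitor NUMB and the target genes HES1 and HEY1. All non-control probes that carry one of these names were taken, 14 of the 41000 different probes on the array. HES1 was chosen by its difference between the clones, which was among the largest on the array, so its values, and the difference between the clones for all 10 genes, are given as a description without a test.

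Notch receptors are activated when a ligand on a neighbouring cell binds them. Proteases then release the intracellular domain of the receptor, which enters the nucleus, joins RBPJ and a Mastermind coactivator on DNA and switches on target genes, above all the HES and HEY family of transcriptional repressors. In the intestinal epithelium Notch signalling keeps progenitor cells dividing and holds back the secretory lineages, with HES1 as the best known mediator.

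RNA came from HCT116, an established human colon cancer cell line. Clones #3-1 and #4-7 stably express an shRNA against N-BLR, a long non-coding RNA, and the control is a clone that carries the empty vector. Each shRNA line is a single clone. The labels describe cells transduced with a lentivirus, whereas the methods of the study describe transfection of a plasmid followed by drug selection. RNA of each clone was hybridised to 2 Agilent 2-colour arrays together with the control RNA, giving 4 arrays. Both arrays of a clone are labelled as biological replicates, but separate cultures are not described, so the p-values measure the spread between arrays, which may be technical. Ratios were tested against 1 control RNA, which leaves out the spread of the control. The array had 0 probes named N-BLR, so the knockdown was not read here by name.

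Between 68.5% and 72.6% of the 43376 probe spots of an array were well above background in a channel, and precision is limited by there being 2 arrays a clone. All 4 arrays lie on 1 slide and were scanned once. Of 7 colon epithelial markers, 6 were well above background in both channels on all arrays, and VIL1 was not. Of 6 markers of other cell types, 2 were well above background in both channels on every array, and the leukocyte marker PTPRC and the endothelial marker PECAM1 were so on none.

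By the labels, Cy5 held the RNA of the shRNA clone on every array and Cy3 that of the empty vector clone. No dyes were swapped, and the dyes are not named in the methods. Each value is therefore given as the log2 ratio of Cy5 over Cy3. Across the 26916 probes well above background in both channels on all arrays, the median size of the difference between the arrays of the clones was 0.057 on the log2 scale in Cy5, which is labelled as different clones, and 0.22 in Cy3, which is labelled as one control. Arrays of the same clone differed by 0.056 in Cy5 and 0.055 in Cy3. Cy3 differed more than Cy5 in 82.3% of these probes, and 1033 probes differed at least 2-fold in Cy3 against 27 in Cy5. With the signals processed by the scanner software, the medians were 0.211 and 0.319.

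The log2 ratio of E-cadherin (CDH1), an epithelial adhesion protein, was -2.60 in clone #3-1 and -1.34 in clone #4-7. These signs are opposite to the direction that the study describes for E-cadherin and vimentin in the clones. The direction was therefore not settled: samples were kept as labelled, every value is called higher or lower in Cy5, and each sign turns if the channels are exchanged. Total counts, sizes and the separation of the arrays do not depend on it. Whether the Cy3 RNA was the same on all arrays was not tested.

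The upstream sequence of HES1 is shown because it holds both kinds of site through which Notch and HES1 itself are known to act on this gene. It is the 250 bases before the HES1 start in RefSeq, build GRCh38.p14, chr3:194135898-194136147 on the plus strand, with capitals marking the matches of 2 motifs, TGGGAA, the core that RBPJ binds, and CACNAG, the N box that HES repressors bind, each searched on both strands.

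HES1 promoter: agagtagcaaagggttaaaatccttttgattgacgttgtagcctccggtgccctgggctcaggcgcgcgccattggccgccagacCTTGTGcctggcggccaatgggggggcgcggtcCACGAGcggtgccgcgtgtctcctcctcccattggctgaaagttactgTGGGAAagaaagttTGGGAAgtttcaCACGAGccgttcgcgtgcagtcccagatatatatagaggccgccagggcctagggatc

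The RBPJ core occurred 2 times, beginning 84 and 70 bases before the start, and the N box 3 times, at 165, 132 and 58 bases. Of 35116 promoters of the same length, 20.8% held at least 1 RBPJ core and 32% at least 1 N box. A promoter entry was found for 8 of the 10 genes, and 7 of these had a single entry. None was found for HEY1 and DLL1, so these genes were not searched. Of these 7 genes, HES1 was the 1 gene that held an RBPJ core, and an N box was found in 2, HES1 and NOTCH3. RBPJ had 5 entries. An entry of RBPJ also held 2 RBPJ cores, beginning 115 and 72 bases before its start, and another held an N box at 55 bases. A match describes these letters and is not evidence of binding in HCT116.

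HES1, the repressor that Notch induces in progenitor cells, was measured by 3 probes on chromosome 3 of build hg17, all on the plus strand. Probe A_23_P17998 (195338878 to 195338937) had log2 ratios of 1.66 and 1.54 on the arrays of clone #3-1 and of -3.45 and -3.47 on those of clone #4-7. Probe A_24_P938293 (195336746 to 195336805) had log2 ratios of 1.34 and 1.39 with clone #3-1 and of -3.14 and -3.09 with clone #4-7. On both probes HES1 was thus higher in Cy5 on both arrays of clone #3-1 and lower in Cy5 on both arrays of clone #4-7, and the arrays of the clones did not overlap. As folds, A_23_P17998 was 3.03-fold higher in Cy5 with clone #3-1 and 11.0-fold lower with clone #4-7, so that the ratios of the clones lay 33.3-fold apart. The same gap was 22.3-fold for A_24_P938293. Among all probes with a higher ratio in clone #3-1, these probes took places 3 and 5 by the size of the difference.

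The HES1 probe A_23_P6596 is shown because its 60 bases are spread over 188 bases of the genome (chr3:195336978-195337165), leaving 128 bases between its ends that the probe does not hold. It is given in lower case, with no part singled out.

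HES1 A_23_P6596: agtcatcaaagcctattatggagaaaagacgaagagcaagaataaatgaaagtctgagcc

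A_23_P6596 had log2 ratios of 0.30 and 0.44 with clone #3-1 and of -1.90 and -1.70 with clone #4-7. It had the same signs as the other probes, with a smaller gap between the clones, 4.51-fold. It was the 1 member probe not well above background in both channels on all arrays, being so in Cy3 on 3 of 4. Its log2 difference between the clones, 2.17 here, was 3.68 with plain background subtraction and 4.75 with the processed signals. The probes of NOTCH3 and HEY1 were dimmer by mean log2 intensity over both channels (6.995 and 7.56, against 7.60). Its place among the probes higher in clone #3-1 was 58.

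The gap in HES1 lay in the Cy3 channel. The Cy5 level of A_23_P17998 was 12.21 and 12.00 with clone #3-1 and 11.98 and 11.96 with clone #4-7, as normalized log2 intensity. Its Cy3 level was 10.56 and 10.46 on the arrays of clone #3-1 and 15.43 and 15.44 on those of clone #4-7. The Cy5 means of the clones thus differed by 0.14 and the Cy3 means by -4.92 on the log2 scale (clone #3-1 minus clone #4-7). For A_24_P938293 the corresponding differences were -0.31 and -4.79. The channel that the labels give to the control thus held HES1 at a low and a high level, and the channel given to the clones held it at nearly the same level on all arrays, between these.

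**Figure D1:**
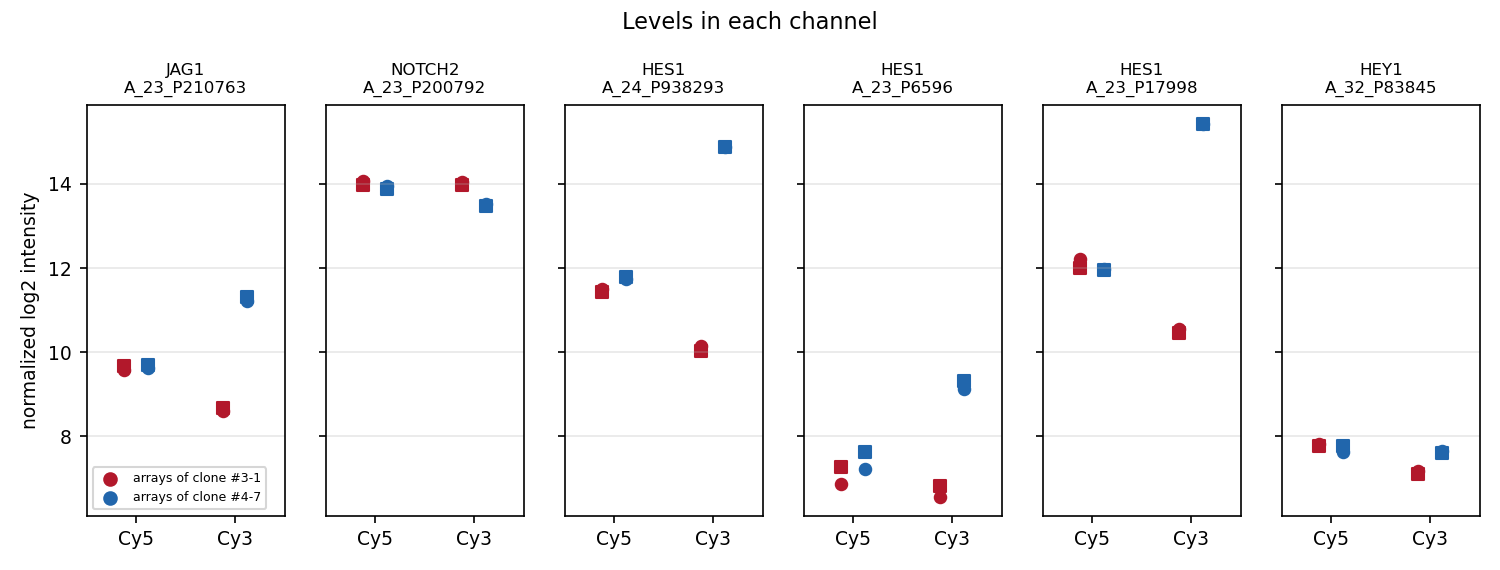
Normalized log2 intensity (vertical axis) in each channel for JAG1, NOTCH2, the 3 HES1 probes and HEY1, with 1 point per array, red for the arrays of clone #3-1 and blue for those of clone #4-7, circles and squares for the arrays of a clone. The Cy5 points of JAG1 and of HES1 A_23_P17998 lie close together, whereas the Cy3 points separate by clone, at about 10.5 and 15.4 for HES1 A_23_P17998.

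The differences of the probes next to HES1 in the ranking are given as a description. Just above A_23_P17998 stood the AP-1 subunit FOSB (5.62) and the matrix protein CCN1 (5.20), against 5.06 for HES1 on the log2 scale. Between the HES1 probes stood FOS, another AP-1 subunit, with 4.72. Below A_24_P938293, at 4.48, came the nuclear receptor NR4A2 (4.45), a second CCN1 probe (4.39) and SPARC, a matrix protein (4.32). The median size of the difference over all probes was 0.14.

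Profiles were compared by the Euclidean distance over the log2 ratios of the 4 arrays, among 26914 probes well above background in both channels on all arrays. The reference was the mean of all HES1 probes, including the dim A_23_P6596, which did not itself pass this background filter. A ranking against the brighter HES1 probes alone was not run, and the order below may depend on this choice. Nearest to this mean was the probe of EGR1, a zinc finger transcription factor, at a distance of 0.37. Next came NR4A2 at 0.56 and CCN2, a secreted matrix protein named CTGF in the files, at 0.58. The fourth was the unnamed probe A_32_P44932 at 0.60, and the fifth the metallothionein MT1E at 0.79. EGR1 had log2 ratios of 0.91 and 0.93 with clone #3-1 and of -2.91 and -2.99 with clone #4-7. All 5 were higher in Cy5 on the arrays of clone #3-1 and lower on those of clone #4-7. JAG1 took place 23 among these probes, with a distance of 1.69. With 4 arrays in 2 clones, likeness says little more than that a probe separates the clones by a similar amount.

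**Figure D2:**
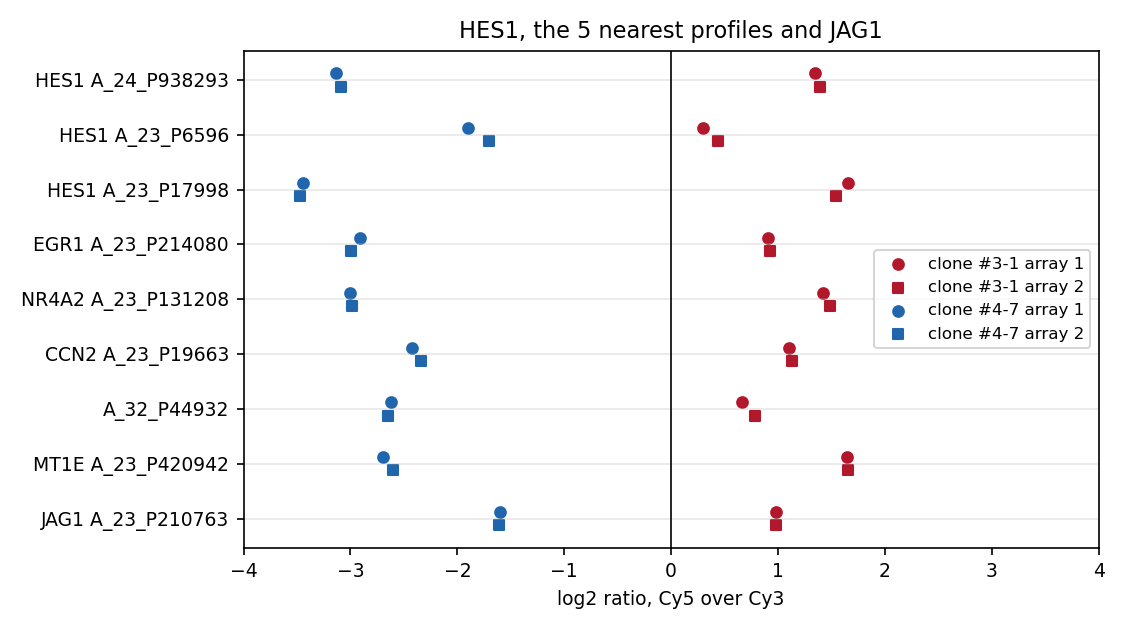
Log2 ratios of Cy5 over Cy3 (horizontal axis) for the 3 HES1 probes, the 5 probes with profiles nearest to the mean of these 3 and JAG1, with 1 point per array. In every row the red points of clone #3-1 lie above 0 and the blue points of clone #4-7 below it.

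The 11 probes of the other 9 genes were tested against a ratio of 0 on the log2 scale in each clone with limma's moderated test. The threshold was the study's p under 0.001, applied here to the unadjusted p. In clone #3-1, 4 of the 11 passed, beside 32.7% of all probes. Of these, 3 were higher and 1 lower in Cy5, beside 16.3% and 16.4% of all probes. In clone #4-7, 4 of the 11 passed, beside 31.1% of all probes, and again 3 were higher and 1 lower, beside 16.1% and 15% of all probes. A share of 36.4% in each clone is near these backgrounds. JAG1 and JAG2 passed in both clones, JAG1 under every alternative setting run. JAG2 lost its call in clone #3-1 with the processed signals, at a log2 ratio of 0.34. The arrays of the clones did not overlap for 10 of the 11 probes, but 69.1% of all probes had this property.

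**Figure D3:**
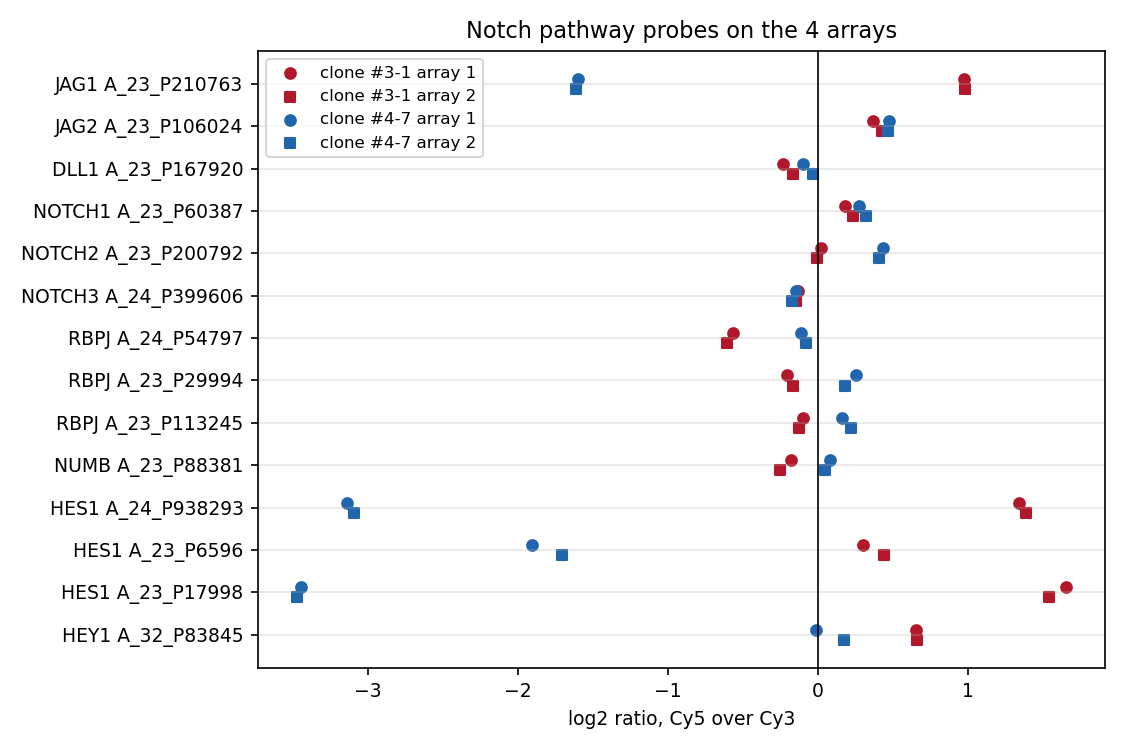
Log2 ratio of Cy5 over Cy3 (horizontal axis) for the 14 Notch pathway probes, with 1 point per array, red for clone #3-1 and blue for clone #4-7. HES1 and JAG1 lie on opposite sides of 0 in the clones, and the other probes lie between -0.60 and 0.66.

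Among the ligands, JAG1 stood apart. JAG1, a membrane ligand of the Jagged class and the cause of Alagille syndrome when mutated, was measured by probe A_23_P210763 on chromosome 20 (10567061 to 10567120, minus strand). Its log2 ratios were 0.98 and 0.98 on the arrays of clone #3-1 and -1.60 and -1.61 on those of clone #4-7. JAG1 was thus higher in Cy5 with clone #3-1, by 1.97-fold (limma's adjusted p = 1.87e-05), and lower in Cy5 with clone #4-7, by 3.04-fold (limma's adjusted p = 1.01e-05), as was seen for HES1. The gap between the clones was 5.99-fold, a log2 difference of 2.58, with place 40 among the probes higher in clone #3-1.

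The channel levels of JAG1 followed the same arrangement as those of HES1. Its Cy5 level lay between 9.57 and 9.70 on all 4 arrays. Its Cy3 level was 8.60 and 8.68 with clone #3-1 and 11.21 and 11.31 with clone #4-7. The promoter window of JAG1 held neither an RBPJ core nor an N box.

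JAG2, the other Jagged ligand (A_23_P106024, chromosome 14, 104679719 to 104679778), had log2 ratios of 0.37 and 0.43 with clone #3-1 and of 0.48 and 0.47 with clone #4-7. It was higher in Cy5 in both clones (limma's adjusted p = 0.000262 and 0.000164), with a log2 difference of -0.07 between them. DLL1, a Delta-like ligand (A_23_P167920, chromosome 6, 170509274 to 170509333), had log2 ratios of -0.23 and -0.17 with clone #3-1 and of -0.09 and -0.03 with clone #4-7. It passed the threshold in neither clone (limma's adjusted p = 0.00515 and 0.173). JAG2 and JAG1 therefore shared a sign with clone #3-1 and had opposite signs with clone #4-7.

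The ratios of the 3 receptors were small. NOTCH1, which is read from 10 spots of 1 probe (A_23_P60387, chromosome 9, 136665601 to 136665660), had log2 ratios of 0.18 and 0.23 with clone #3-1 and of 0.27 and 0.32 with clone #4-7. It passed in clone #4-7 (limma's adjusted p = 0.000903) and not in clone #3-1 (0.00329), although the mean ratios, 0.21 and 0.30, were close. The call in clone #4-7 was lost when either of its arrays was left out, at a log2 ratio of 0.27 to 0.32, and under 4 other settings of the processing, where the ratio was up to 0.52.

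NOTCH2, the brightest receptor probe (A_23_P200792, chromosome 1, 120166900 to 120166959), had log2 ratios of 0.02 and -0.01 with clone #3-1 and of 0.43 and 0.41 with clone #4-7. It was higher in Cy5 with clone #4-7 by 1.34-fold (limma's adjusted p = 0.000195), with an adjusted p of 0.837 in limma for clone #3-1. NOTCH3 (A_24_P399606, chromosome 19, 15132756 to 15132815) had log2 ratios of -0.13 and -0.15 with clone #3-1 and of -0.15 and -0.17 with clone #4-7. It passed in neither clone (limma's adjusted p = 0.00985 and 0.00634) and was the 1 member probe whose arrays overlapped between the clones. With the processed signals, its log2 ratios were -0.48 and -0.47 and again passed in neither clone.

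RBPJ, the DNA-binding protein to which the released Notch domain attaches, was measured by 3 probes on chromosome 4 that did not all give the same result. Its probe A_24_P54797 is shown because, unlike the others, its 60 bases are spread over 211 bases of the genome (chr4:26102343-26102553, plus strand), and it is printed in lower case with no part singled out.

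RBPJ A_24_P54797: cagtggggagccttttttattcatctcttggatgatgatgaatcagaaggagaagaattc

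This probe had log2 ratios of -0.57 and -0.60 with clone #3-1 and of -0.11 and -0.08 with clone #4-7, and it was lower in Cy5 with clone #3-1 (limma's adjusted p = 7.3e-05). A_23_P29994 (26108955 to 26109014) had log2 ratios of -0.20 and -0.16 with clone #3-1 and of 0.26 and 0.18 with clone #4-7. A_23_P113245 (26112459 to 26112519) had log2 ratios of -0.10 and -0.13 with clone #3-1 and of 0.16 and 0.22 with clone #4-7. Neither of these passed in either clone, and the smallest of their adjusted p in limma was 0.00337. All 3 probes had a lower ratio in clone #3-1 than in clone #4-7, by 0.49, 0.40 and 0.31 on the log2 scale.

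NUMB, an endocytic adaptor that antagonises Notch receptors (A_23_P88381, chromosome 14, 72812262 to 72812321), had log2 ratios of -0.18 and -0.25 with clone #3-1 and of 0.08 and 0.05 with clone #4-7. It passed in neither clone (limma's adjusted p = 0.00342 and 0.152), and its arrays did not overlap between the clones.

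HEY1, a repressor of the family related to HES1 and a second direct target of Notch (A_32_P83845), had log2 ratios of 0.66 and 0.66 with clone #3-1 and of -0.01 and 0.18 with clone #4-7. It was higher in Cy5 with clone #3-1 (limma's adjusted p = 0.000247) and did not pass with clone #4-7 (adjusted p = 0.225 in limma). With plain background subtraction its log2 ratio in clone #3-1 was 1.26 and did not pass, and with the processed signals it was 1.70 and passed. HEY1 lacked the strongly negative ratio with clone #4-7 that HES1 and JAG1 had.

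Across the 14 member probes, 7 had opposite signs in the clones on every array: the HES1 probes, JAG1, 2 probes of RBPJ and NUMB. Without HES1 these were 4 of 11, beside 21.7% of all probes. A difference of at least 2-fold between the clones was seen for the HES1 probes, but HES1 was chosen by this contrast. Of the other 11 probes, JAG1 alone had such a difference, beside 2.51% of all probes. HES1 and JAG1 were higher in Cy5 with clone #3-1, while RBPJ and NUMB were lower. Cy3 differed more than Cy5 between the arrays of the clones in 14 of 14 member probes. The share was 82.3% of the 26916 probes well above background in both channels on all arrays. With the processed signals it was 13 of 14 member probes, beside 66.9% of those 26916 probes.

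Another 71 genes of the pathway and its surroundings were listed by role, and 68 of them were measured, each represented by its brightest probe. In clone #3-1, 18 were higher and 15 lower in Cy5, together 48.5% of the 68, beside 32.7% of all probes. In clone #4-7, 18 were higher and 11 lower, together 42.6%, beside 31.1% of all probes. The counts by role given below stand beside the same shares of all probes. Between the clones, 12 had a higher and 10 a lower ratio in clone #3-1, together 32.4%, beside 22.6% of all probes. Of all probes, 11% passed with a higher and 11.6% with a lower ratio in clone #3-1. These shares do not compare like with like, also in the counts by role. Of the 68 brightest probes, 58 were well above background in both channels on all arrays, against 26916 of all 41000 probes. Whether the listed genes exceed a background of equally bright probes was not tested. The median log2 ratio of the listed genes was 0.02 in clone #3-1 and 0.03 in clone #4-7, and that of all probes was 0.01 in both. The larger differences between the clones, those of NEURL1, NOTCH4, MFNG, CDKN1A, LFNG, ITCH and TLE1, passed under every alternative setting run. The calls of LFNG, POGLUT1, KAT2B, FBXW7, HES2 and HEYL in clone #4-7 and of APH1B, FBXW7, CDKN1C and GFI1 in clone #3-1, all with sizes from 0.23 to 0.35, were lost when 1 array was left out.

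**Figure D4:**
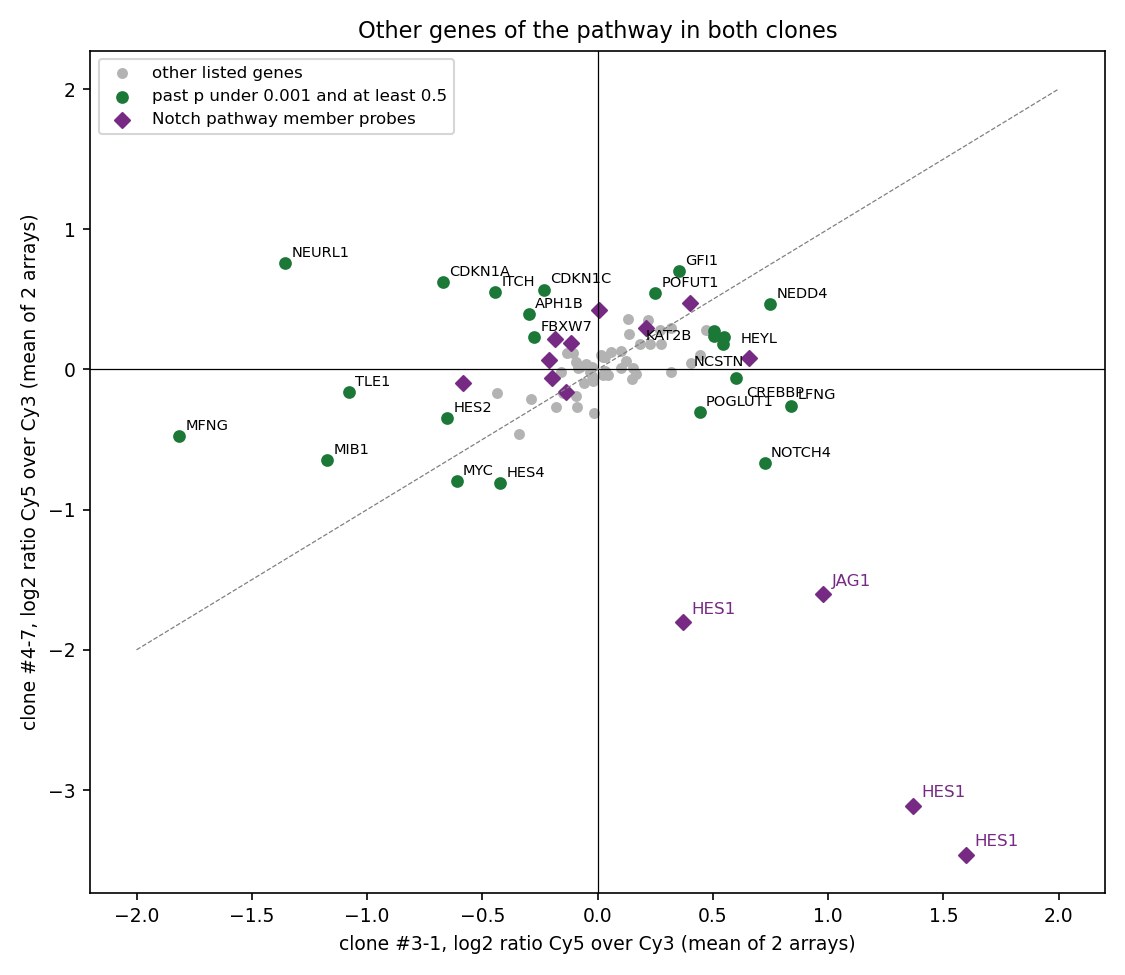
Log2 ratio of Cy5 over Cy3 in clone #3-1 (horizontal axis) and clone #4-7 (vertical axis), as means of 2 arrays, for the 68 listed genes (circles) and the 14 member probes (diamonds). The dashed line marks equal ratios, green circles passed limma's unadjusted p under 0.001 with a size of at least 0.5 in a clone or between the clones (not all are named), and HES1 and JAG1 lie far below the line.

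Of the other ligands and receptors, DLL3 and DLL4 were called in neither clone, and no probe of theirs was well above background on all arrays. NOTCH4, the receptor of endothelial cells, was higher in Cy5 with clone #3-1 (0.72 ± 0.01, SD, n = 2 arrays) and lower with clone #4-7 (-0.67 ± 0.01). Its difference of 1.39 passed limma's test between the clones (adjusted p = 4.6e-05). A second NOTCH4 probe, A_24_P26496, was not well above background on all arrays and had ratios of -0.06 and -0.27.

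The 5 glycosyltransferases modify the extracellular part of the receptors, and the Fringe enzymes among them change which ligands a receptor answers to. Of the 5, 2 were higher and 1 lower in clone #3-1, and 1 was higher and 3 lower in clone #4-7. MFNG was lower in Cy5 in both clones, with -1.81 ± 0.05 in clone #3-1 and -0.47 ± 0.04 in clone #4-7 (SD, n = 2 arrays). The difference of -1.34 passed (limma's adjusted p = 6.8e-05), and the second MFNG probe gave -1.28. LFNG was higher in Cy5 with clone #3-1 (0.84) and lower with clone #4-7 (-0.26), while its second probe, A_23_P434518, gave 0.01 and -0.16. POGLUT1, which adds O-glucose, had ratios of 0.44 and -0.31. Its second probe, A_24_P123133, gave 0.35 and 0.14, with the other sign in clone #4-7, where this probe did not pass. POFUT1, which adds O-fucose, passed in clone #4-7 with 0.55. That call was lost with plain background subtraction (0.97), the processed signals (1.24) and the authors' log ratios (1.24).

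The receptor is cleaved by ADAM proteases and then by gamma-secretase. Of the 9 genes listed, 3 were higher and 3 lower in clone #3-1, and 4 were higher in clone #4-7, where none was called lower. NCSTN, a subunit of gamma-secretase, passed in clone #3-1 with 0.54. APH1B had ratios of -0.30 and 0.40, and the difference of -0.69 passed (limma's adjusted p = 0.000211). ADAM10 was higher in Cy5 in both clones, with 0.47 and 0.28.

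In the nuclear complex of 14 genes, 6 were higher and 1 lower in clone #3-1, and 2 were higher and 2 lower in clone #4-7. The acetyltransferase CREBBP was higher in Cy5 with clone #3-1 (0.60) and had a ratio of -0.06 with clone #4-7. Its difference of 0.66 passed (limma's adjusted p = 0.00048), and its other probes gave 0.34 and 0.27. KAT2B, also an acetyltransferase, was higher in Cy5 in both clones (0.51 and 0.24), but its second probe, A_23_P41128, passed in neither (0.13 and 0.03). MAML1, a Mastermind coactivator, passed in clone #3-1 with 0.32 and had a ratio of -0.02 in clone #4-7.

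The list of turnover and endocytosis held 12 measured genes, of which 3 were higher and 4 lower in clone #3-1, and 6 higher and 2 lower in clone #4-7. NEURL1, a ubiquitin ligase that acts on Notch ligands, was lower in Cy5 with clone #3-1 (-1.36 ± 0.03) and higher with clone #4-7 (0.76 ± 0.05, SD, n = 2 arrays), a log2 difference of -2.11 (limma's adjusted p = 2.8e-05). Its second probe had the same signs, with a difference of -1.38. MIB1, the ligase that makes ligands active by endocytosis, was lower in Cy5 in both clones, with -1.17 and -0.65, and its 3 probes gave differences of -0.53 to -0.66. The call between the clones for its brightest probe was lost with plain background subtraction, the processed signals and the authors' log ratios, at differences of -0.55. ITCH, a ligase of Notch, had ratios of -0.45 and 0.55, but its second probe gave -0.35 and -0.33. NEDD4 was higher in Cy5 in both clones (0.75 and 0.46), and FBXW7, which marks the nuclear Notch domain for degradation, had ratios of -0.28 and 0.23. The second FBXW7 probe, A_23_P81153, gave -0.23 and -0.14 and passed in neither clone, so the sign in clone #4-7 differed between the probes.

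No other listed gene of the HES and HEY family had ratios as large as the brighter HES1 probes. HES2 was lower in Cy5 in both clones (-0.65 and -0.35), and HES4 was lower as well (-0.42 and -0.81). HEYL was higher in both (0.55 and 0.23). HES6 (0.05 and -0.04) and HES7 (-0.16 and -0.02) passed in neither clone, and HES5 and HEY2 were not well above background in either channel on any array. HES3 was not measured under that name. The lowest ratio of a listed family member with clone #4-7 was that of HES4.

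Of the other Notch targets in that list, MYC, a growth regulator, was lower in Cy5 in both clones by its brightest probe (-0.61 and -0.80). Its other probes passed in neither clone, with -0.28 and -0.26 for A_24_P38363 and 0.19 and -0.08 for A_24_P178011. The brightest probe of CCND1, which drives entry into the cell cycle, passed in neither clone (0.10 and 0.13). CCND1 probe A_24_P124550 passed in clone #4-7 with 0.36 and not in clone #3-1 (0.18), and A_24_P193011 gave -0.03 and -0.04. CDKN1A, the cell cycle inhibitor p21, was lower in Cy5 with clone #3-1 (-0.67) and higher with clone #4-7 (0.63). Its difference of -1.29 passed (limma's adjusted p = 4.7e-05), and its second probe gave -1.42. The sign of CDKN1A was opposite to that of HES1 in each clone.

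HES1 acts with TLE corepressors, of which 5 were listed. TLE1 was lower in Cy5 with clone #3-1 (-1.08) and had -0.16 with clone #4-7, where it did not pass. The difference of -0.92 passed (limma's adjusted p = 0.000145). Of 5 genes that HES1 is known to repress, 1 passed in each comparison, the cell cycle inhibitor CDKN1C, with -0.23 in clone #3-1 and 0.57 in clone #4-7 and a difference of -0.80 (limma's adjusted p = 0.000182). ATOH1, which starts the secretory fate, was not well above background in either channel on any array. Of 5 genes of the intestinal secretory lineage, GFI1, a zinc finger repressor, was the 1 called, higher in Cy5 in both clones (0.35 and 0.70).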

How the data were processed

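Spot intensities of 4 arrays were read as the authors deposited them, without normalization, from Agilent Feature Extraction (version 8.5.1.1 in the submitters' notes, 9.5.3.1 in the file headers). The deposited files also give flags of 0 or 1 for spots that are outliers, saturated or well above background and the log10 ratio of Cy5 over Cy3, and the authors' table holds log10 ratios within 0.005 of these. With R 4.3.3 and limma 3.58.1, background was corrected by normexp (offset 50), ratios were normalized by loess and quantiles, and spots of a probe were averaged on the log2 scale. Control spots and 87 to 125 outlier spots per array were left out. A model with a term per clone was fitted over all 41000 probes, with Benjamini-Hochberg adjustment over all of them. The study's methods name a threshold of p under 0.001 without saying whether p was adjusted, and it was applied to the unadjusted p. The fit was tested on simulated data. Background correction, normalization, filters and left-out arrays were varied as alternatives. Members and gene lists were chosen with earlier results of these data known. The genes named were all member probes, the HES and HEY family, listed genes past the threshold with a size of at least 0.5, the 5 nearest profiles and the neighbours of HES1 in the ranking, of which a few are not reported here. Probe names and positions are those of the array on hg17, 23434 probes were matched to a current symbol, and no hg17 annotation of exons was used. Sequences are from the array files and RefSeq.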

Additional observations from a re-analysis of the deposited data

Results flagged for a closer look

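The listed results below are differences of the log2 ratio, clone #3-1 minus clone #4-7, that either passed limma's test between the clones or had opposite signs on every array of the clones. The tested ones were NOTCH4 with 1.39, LFNG with 1.098 (limma's adjusted p = 0.000137), MFNG with -1.34, POGLUT1 with 0.75 (0.000186 in limma), APH1B with -0.69, CREBBP with 0.66, ITCH with -0.99 (0.000127 in limma) and FBXW7 with -0.51 (0.000553 in limma). The others were MIB1 with -0.53 (limma's adjusted p = 0.000607, a call lost under 3 alternative settings), NEURL1 with -2.11, CDKN1A with -1.29, TLE1 with -0.92 and CDKN1C with -0.80.

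Opposite signs on every array were seen for JAG1 with 2.58, RBPJ with -0.40 and -0.31, NUMB with -0.28 and the HES1 probes with 5.06, 4.48 and 2.17. These differences were not tested, because the contrast served to choose HES1. For ITCH, LFNG, FBXW7, NOTCH4 and POGLUT1 the second probe did not pass limma's threshold between the clones, with differences of -0.02, 0.18, -0.09, 0.21 and 0.21.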

How the results depend on the processing

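Signs rest on the labels of the channels: with the ratio taken as Cy3 over Cy5, chosen after seeing the data, the HES1 difference of A_23_P17998 was -5.06. It was 5.13 with plain subtraction, 5.22 with processed signals and with the authors' ratios, and 5.14 with Aquantile. Of the listed genes, 18 passed in clone #4-7 and 13 between the clones with an offset of 0, 13 and 12 with plain subtraction (21 in clone #3-1), and 17 and 12 with processed signals. With an adjusted p under 0.05, 35 passed between the clones. Of the member probes, 8 and 7 passed in clones #3-1 and #4-7 when fitted on probes above background only, 9 and 7 with an intensity trend, and 10 and 8 at an adjusted p under 0.05. Single arrays left out in turn gave 13 to 13 listed genes between the clones, 22 to 30 in clone #3-1 and 14 to 23 in clone #4-7, 4 to 4 and 3 to 4 member probes, and 5.00 to 5.12 for HES1, with fewer arrays lowering counts by construction. The spread of a clone with a lone array was taken from the other clone. The NOTCH3 difference of 0.02 turned to -0.004, -0.009, -0.008 and -0.021 with an offset of 0, processed signals, the authors' ratios and Aquantile. NOTCH2 in clone #3-1 ranged from -0.007 to 0.023 and HEY1 in clone #4-7 from -0.010 to 0.175 as single arrays of the clone were left out. Of the calls on single probes under all alternatives, 136 were lost and 27 gained, and 1160 values kept their side of the threshold or moved within the spread. Listed genes were followed only where they had passed with the main settings, so a gain could be recorded for member probes alone. The balance of lost and gained calls therefore has no meaning. Replicate numbers did not pair the arrays (correlation -0.013 across probes), and with the replicate block 4 and 4 member probes and 30, 25 and 16 listed genes passed, and the HES1 difference was 5.06. The slide as a block was not run, since there was 1 slide. The cause of the other shifts was not tested.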
